A study of Mus musculus with 89 samples.

Results

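Mapt, Map2, Map4, Macf1, Clasp1, Clasp2, Dync1i2 and Mark3 encode proteins that bind microtubules, move along them or regulate those that do. The 8 genes were chosen by name, with earlier results of these data known. Every exon skipping event listed for them in the deposited junction tables was used. In the table of the herpes simplex virus (HSV) experiment they held 93 of 27900 events, at 76 distinct exons, and in the table of the dCas9-SET2 experiment 37 of 5608 events. All 8 genes stand in both tables. Of the 93 events, 49 at 42 exons had enough reads to be tested, against 7754 events over all genes.

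Microtubules are polar polymers of tubulin that carry transport in axons and dendrites. Tau (Mapt), MAP2 and MAP4 form one family, which binds the microtubule lattice through a row of related repeats near the C-terminal end; tau is enriched in axons, MAP2 in dendrites, and MAP4 is made in most cell types. MACF1 is a giant linker between actin and microtubules, CLASP1 and CLASP2 stabilise growing plus ends, DYNC1I2 is an intermediate chain of cytoplasmic dynein that joins the motor to its cargo, and MARK3 is a kinase that phosphorylates tau, MAP2 and MAP4 and releases them from microtubules. Transcripts of most of these genes are spliced in several forms in brain, and very short exons (microexons) are a known feature of neuronal splicing.

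The study asked how the histone mark H3K36me3, which the methyltransferase Set2 places over transcribed gene bodies, relates to alternative splicing in the nucleus accumbens, a reward region of the mouse brain. Its RNA samples came from wild-type C57BL/6 mice of 8 weeks. In the first experiment HSV carried Set2, Set2 with the substitution R195G, or GFP, with 3 libraries for each. In the second, dCas9-SET2 (an inactive Cas9 fused to SET2) was given with a guide against Srsf11, which encodes a splicing factor, or with a non-targeting guide, with 4 sample names of 4 runs for each guide. All tissue was a dissected punch, so the libraries mix infected with uninfected cells and neurons with glia; the labels name neither the promoter of a construct nor the share of cells reached.

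Neither table names its columns. The HSV table compares a larger set of 3 libraries with a smaller set of 2, and the dCas9-SET2 table a second set of 16 runs with a first set of 16. No virus and no guide was assigned to a set. Nothing in the labels says that the libraries came from separate animals, so p-values measure only the spread between these libraries, which may be technical. Below, the inclusion level (PSI, percent spliced in, written as a fraction) is the share of transcripts that include the exon, computed from reads divided by the length of each form.

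Summed over all its events, the HSV table held 7428974 to 8341849 reads per library in the larger set and 8366275 to 8638249 in the smaller set. The dCas9-SET2 runs held 56946 to 84870 reads in the second set and 79799 to 106251 in the first. The HSV sets differed in more than splicing. Of 26 interferon response genes 17 could be measured, and all 17 had higher coverage in the larger set. Their summed levels were 3067 to 3454 CPM there and 102 to 204 CPM in the smaller set. CPM here means counts per 1000000 reads, where only the event with the most reads of each gene enters the total of a library. Markers of medium spiny neurons, the main neurons of this region, were measured for 11 of 14 genes, with 10 lower in the larger set (3715 to 3972 CPM there, 9224 to 11323 in the smaller set). Of the oligodendrocyte markers, 7 of 9 measured were higher in the larger set (8303 to 10832 against 6361 to 8577 CPM), as were 5 of 10 microglial markers (2171 to 2324 against 1018 to 2348 CPM) and 3 of 7 astrocyte markers. General neuronal markers were split, with 2 higher and 3 lower of 6 measured. No endothelial marker had enough reads. Within the smaller set, the first library stood apart, with the lowest microglial and oligodendrocyte sums of all 5 libraries. The second library stood apart in single markers. Its Enpp2, part of the oligodendrocyte sum of 8577, was at 977 CPM, against 140 to 198 in the other libraries. Its Cd68, part of the microglial sum, was at 396 CPM, against 125 to 179. The part of these differences in the results below was not tested.

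The skipped exons of these genes were often very short, and nearly all had a length that keeps the reading frame. Of their 42 tested exons, 13 were 27 nt or shorter, which is 31.0%, against 5.33% of the 7075 tested exons of all genes. The length was divisible by 3 in 39 of the 42 exons, or 92.9%, against 52.2% of all tested exons. The exceptions were an exon of 94 nt in Dync1i2, an exon of 97 nt in Mapt and an exon of 190 nt in Map4. The shortest exon, of 3 nt, lay in Clasp2. Of 4 exons of at least 300 nt, the longest, of 3180 nt, lay in Map4. The median tested exon was 87 nt long, against 104 nt over all genes. Forms of an exon with another start or end count as exons of their own here, among the members and over all genes. Examples are 12 and 15 nt in Macf1, 18 and 94 nt in Dync1i2, and 759 and 711 nt or 198 and 97 nt in Mapt. These shares count exons in the deposited table and were not tested, since exons of one gene are not independent.

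**Figure D1:**
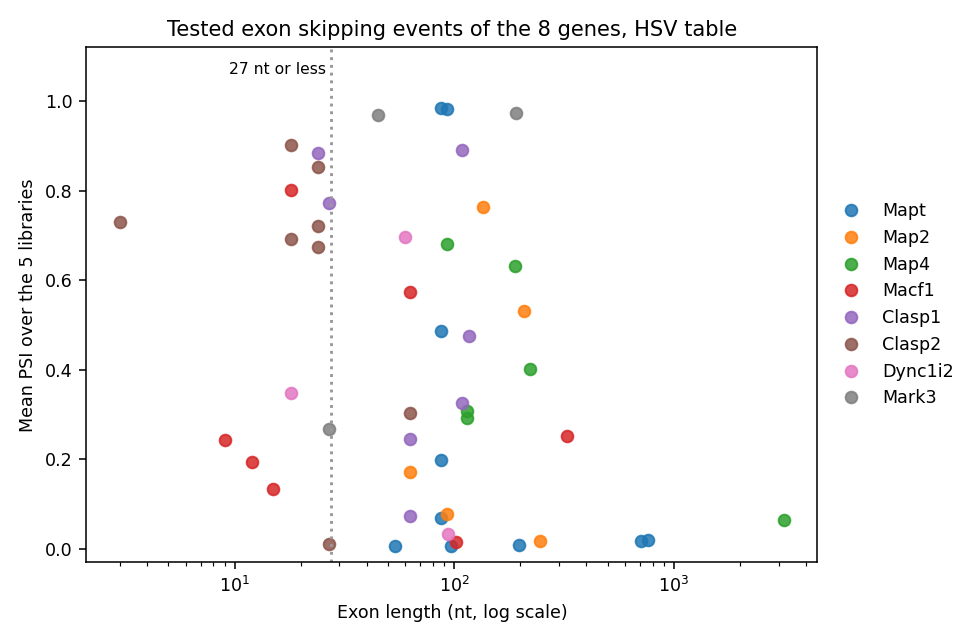
Exon length in nt (log scale) against mean PSI over the 5 HSV libraries for the 49 tested events, coloured by gene; the dotted line marks 27 nt. Short exons of Clasp1, Clasp2 and Macf1 span most of the range of PSI, whereas the long exons of Mapt and Map4 lie near 0.

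Many of the listed events had a PSI near 1. Over the 93 events, 45 had a mean PSI of at least 0.95, 10 had at most 0.05 and 38 lay between. Of the 44 untested events, 41 had a mean PSI of at least 0.95, 43 had fewer than 10 reads of the rarer form and 3 had a mean of fewer than 20 reads per library. Most untested events thus had very few reads of the skipping form they list. That does not give the share of transcripts with the exon, which can be skipped often in another listed event. The upstream 87-nt exon of Mapt had a mean PSI of 0.981 in an untested event and 0.198 in a tested one.

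Between the HSV sets, 1 of the 49 tested events was called (adjusted p below 0.05 by limma, with Benjamini-Hochberg adjustment over all 7754 events), which is 2.04%, against 1.97% of all tested events. No test of the difference between these shares was made. By direction, 25 of the 49 had a higher and 24 a lower mean PSI in the larger set, and the median absolute difference was 0.04, against 0.031 over all events. At an unadjusted limma p below 0.05 stood 10 events, or 20.4%, against 12.2% of all. No library of one set lay within the range of the other in 16 events, or 32.7%, against 27.8% of all. The authors' deposited table has 10 of the 49 events at a false discovery rate (FDR) below 0.05, or 20.4%, against 12.6% of all tested and 4.87% of all listed events; 5 of them were higher and 5 lower in the larger set, and in 8 the sets did not overlap. When limma weighted each value by its observed reads of both forms, an alternative in which an event's own spread between libraries does not enter its p, it called 5 member events, or 10.2%, against 3.69% of all.

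**Figure D2:**
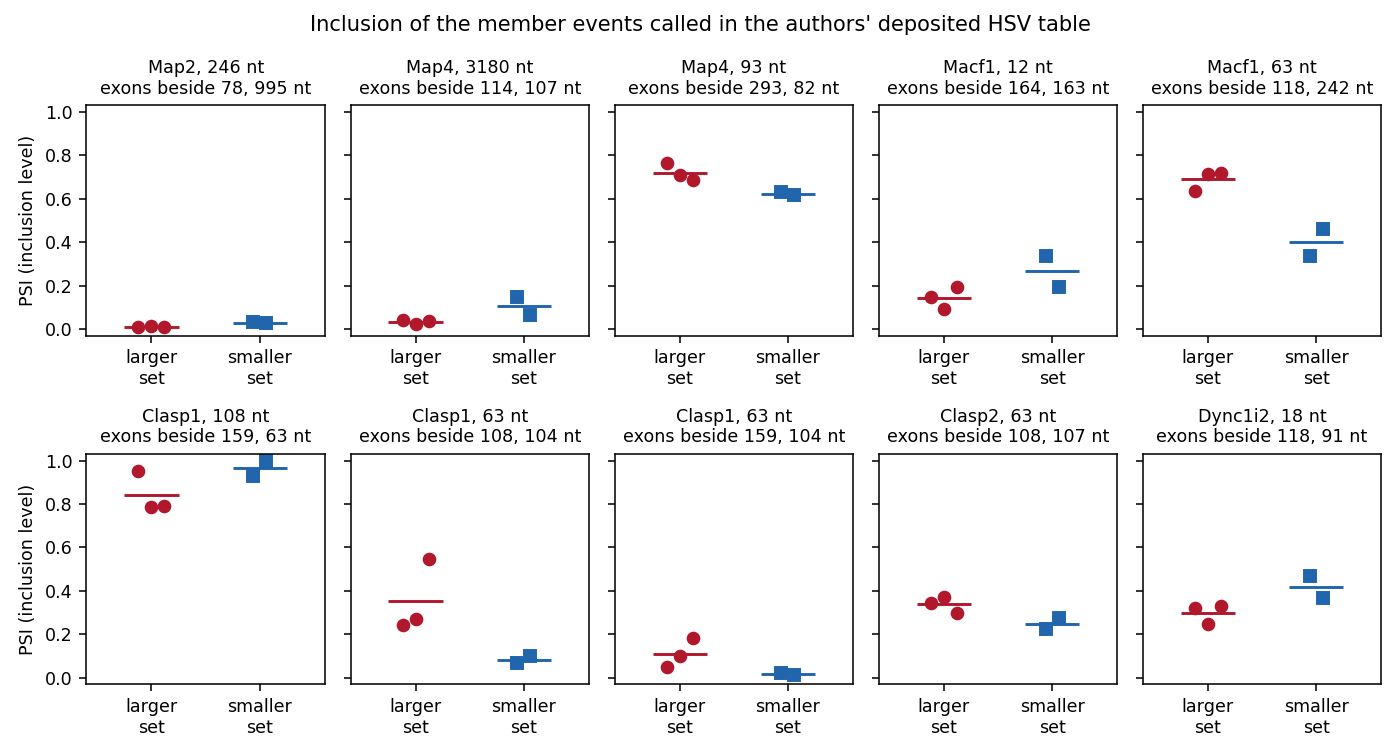
PSI in each library for the 10 member events with an FDR below 0.05 in the authors' deposited table, with the larger set as red circles, the smaller set as blue squares and set means as lines; titles give the gene, the exon length and the lengths of the exons before and after. The sets do not overlap in 8 of the 10 panels; they touch in the 12-nt exon of Macf1 and overlap in the 108-nt exon of Clasp1.

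The called event was the 3180-nt exon of Map4 (chromosome 9, 109939792 to 109942971 as the HSV table gives it), between exons of 114 and 107 nt. A long added exon of this kind is known from a muscle form of mouse MAP4. Its PSI was 0.04, 0.024 and 0.039 in the larger set, against 0.15 and 0.067 in the smaller set. The exon was thus rare in all 5 libraries and rarer in every library of the larger set, most clearly against the first library of the smaller set. Reads including the exon numbered 98, 58 and 88, with 105, 105 and 98 skipping it, in the larger set; the smaller set had 196 and 147 including and 50 and 92 skipping reads. The logit of inclusion fell by 1.15 ± 0.25 (SE; natural logarithm, n = 3 against 2), with an adjusted p of 0.0149 (limma), where 1.1% of all events were called lower. The call depended on most single libraries. The adjusted p (limma) was 0.312 without the first library of the smaller set, where the logit difference was -0.70, and 0.122, 0.249 and 0.163 without each library of the larger set. It was 0.00185 without the second library of the smaller set and 0.463 with unweighted values.

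In the repeat region, the 3 genes of the MAP2 and tau family each listed a 93-nt exon directly before an 82-nt exon. In tau and MAP2 this exon encodes an added microtubule-binding repeat, which adult rodent tau includes and most MAP2 lacks. In Mapt its PSI was 0.987, 0.985 and 0.992 in the larger set and 0.958 and 0.993 in the smaller set. In Map2 it was 0.077, 0.092 and 0.081 in the larger set and 0.058 and 0.083 in the smaller set. Nearly all Mapt transcripts and few Map2 transcripts carried the exon in every library, and the sets overlapped in both genes (adjusted p = 0.842 and 0.720, limma). In Map4 the level went with the exon before it. After the 114-nt exon the 93-nt exon was included at 0.998 on average (210 to 285 reads per library, not tested for want of skipping reads). After the 293-nt exon it had PSI 0.764, 0.709 and 0.685 in the larger set, against 0.632 and 0.616 in the smaller set. Both events count the junction to the 82-nt exon, so transcripts with the 114-nt exon add to this second level. In this second context all 3 libraries of the larger set were higher, yet the difference missed the threshold (adjusted p = 0.268, limma) although the authors' deposited table gives an FDR of 0.0359.

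None of the 10 tested Mapt events passed the test, the lowest adjusted p being 0.454 (limma). Tau can carry N-terminal inserts encoded by 2 neighbouring exons of 87 nt. The upstream 87-nt exon, in the event with the 66-nt exon after it, had PSI 0.223, 0.24 and 0.183 in the larger set, against 0.152 and 0.193 in the smaller set. Reads at the junction into this exon count there whichever exon follows. The downstream 87-nt exon had PSI 0.459, 0.48 and 0.534 in the larger set and 0.542 and 0.422 in the smaller set when the upstream one preceded it. In the event that runs past the upstream exon, the downstream exon had 0.082, 0.081 and 0.066, against 0.054 and 0.057. That event also counts reads of transcripts with both inserts, so it does not give the level without the upstream exon. The direct junction past the upstream exon to the downstream one had 6, 2 and 2 reads in the larger set and 0 and 0 in the smaller. In every library, the downstream insert was thus far more often present beside the upstream insert, an order known for tau; these events share junction reads. The long exon of 759 nt or, from an inner start, 711 nt, which resembles the exon of the big tau of peripheral nerve in place and size, had a PSI of 0.014 to 0.022 in all libraries. Exons of 198, 97 and 54 nt reached at most 0.017.

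In Map2, none of 5 tested events passed, and the lowest adjusted p belonged to the 246-nt exon (chromosome 1, 66457148 to 66457393). This exon marks MAP2A, the adult high-molecular-weight form. Its PSI was 0.01, 0.013 and 0.008 in the larger set, against 0.032 and 0.027 in the smaller set. The exon was rare in every library and the sets did not overlap (adjusted p = 0.193 by limma, 0.0319 with observed-read weights; FDR 0.000859 in the authors' deposited table). The 3741-nt exon, which the juvenile form MAP2C lacks, was listed only against junctions to the 207-nt or 135-nt exon after it, where it had 0 to 2 skipping reads per library and was not tested. Those events leave out the direct junction from the 78-nt to the 62-nt exon, which also skips the 3741-nt exon and had 68 to 90 reads per library, so they do not give the share of transcripts with the exon. Measured against that direct junction, the 207-nt and 135-nt exons differed by 0.0327 and 0.0477 in mean PSI, with overlapping sets.

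Map4 had 6 tested events. Besides the exons above, the 222-nt exon had PSI 0.329, 0.457 and 0.329 in the larger set and 0.389 and 0.501 in the smaller set. The 190-nt exon had 0.597, 0.659 and 0.629, against 0.614 and 0.658. The 114-nt exon was listed with 2 following exons. Its PSI differed by -0.0497 in the event with the 93-nt exon and by 0.091 in that with the 82-nt exon. The direct junction from the 114-nt to the 82-nt exon had 1, 0 and 1 reads in the larger set and 0 and 0 in the smaller. The 0.091 is thus no measure of a form with that junction. Its event shares its skipping reads with the 93-nt exon after the 293-nt exon. In all of these events the sets overlapped, and adjusted p ran from 0.488 to 0.971 (limma).

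In Macf1, a 63-nt exon had the largest difference of the 49 tested events (chromosome 4, 123118846 to 123118908). Its PSI was 0.635, 0.716 and 0.72 in the larger set, against 0.336 and 0.463 in the smaller set. The sets did not overlap, but the event held 55 to 118 reads per library, and its adjusted p was 0.169 (limma), 0.0343 with observed-read weights. The authors' deposited table gives an FDR of 0.00232. A 12-nt microexon of Macf1 had 0.148, 0.094 and 0.195 in the larger set, against 0.339 and 0.195 in the smaller set (adjusted p = 0.314, limma; FDR 0.0449 in the authors' deposited table). The same microexon with 3 more bases, of 15 nt, had 0.18, 0.083 and 0.116, against 0.219 and 0.072; the sets overlapped, and both events share their skipping reads. The event with the most reads, a 102-nt exon, was included at 0.014, 0.005 and 0.006 in the larger set and 0.015 and 0.039 in the smaller set (adjusted p = 0.524, limma). Part of the Macf1 gene overlaps the protein-coding gene D830031N03Rik in the GRCm38.p6 annotation, and the sources do not state whether reads were counted by strand.

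The 2 CLASP genes share a layout of alternative exons, and the same exon could be set side by side. Each lists a 63-nt exon after a 108-nt exon, a 24-nt exon before a 245-nt exon and a 3-nt exon between exons of 64 and 164 nt. The 3-nt exon was included at 0.996 on average in Clasp1, where it was not tested for want of skipping reads. In Clasp2 it had PSI 0.715, 0.728 and 0.679 in the larger set, against 0.75 and 0.781 in the smaller set. The 24-nt exon had PSI 0.768 to 0.919 over the libraries in Clasp1 and 0.651 to 0.744 in Clasp2. For both short exons every Clasp1 library was thus above every Clasp2 library.

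The 63-nt exon had a higher PSI in the larger set in both CLASP genes, without passing the test in either. In Clasp1 (chromosome 1, 120432712 to 120432774) its PSI after the 108-nt exon was 0.241, 0.272 and 0.545 in the larger set, against 0.068 and 0.098 in the smaller set. Every library of the larger set was higher, but 1 of them stood well above the other two, at 45 to 54 reads per library. The adjusted p was 0.0684 (limma), and 0.0371 with 1 instead of 0.5 added to each count or 0.0204 with observed-read weights; the authors' deposited table gives an FDR of 0.000834. In the event that runs past the 108-nt exon, the 63-nt exon had 0.05, 0.102 and 0.183, against 0.024 and 0.012 (adjusted p = 0.290, limma, and FDR 0.00217 in the authors' deposited table). The direct junction past the 108-nt exon had 1, 4 and 6 reads, against 1 and 0. This event shares the junction to the 104-nt exon with the one above, so it is no separate observation and not the level without the 108-nt exon. The 108-nt exon, in the event with the 63-nt exon after it, had 0.953, 0.784 and 0.791, against 0.93 and 1.0, at 19 to 45 reads per library. Its adjusted p was 0.797 (limma), with an FDR of 0.0488 in the authors' deposited table. Reads at the junction into the 108-nt exon count there whichever exon follows. In Clasp2 the 63-nt exon (chromosome 9, 113784383 to 113784445) had 0.344, 0.373 and 0.3 in the larger set, against 0.224 and 0.275 in the smaller set, at 329 to 367 reads. The sets did not overlap, and the adjusted p was 0.257 (limma; FDR 0.0349 in the authors' deposited table). The Clasp1 event with the most reads, a 117-nt exon, had 0.508, 0.504 and 0.463, against 0.465 and 0.442 (adjusted p = 0.873, limma).

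Dync1i2 listed 4 events. Its 18-nt microexon (chromosome 2, 71065884 to 71065901) had PSI 0.319, 0.249 and 0.332 in the larger set, against 0.467 and 0.369 in the smaller set. All libraries of the larger set were lower, with an adjusted p of 0.216 (limma), 0.0361 with observed-read weights, and an FDR of 0.0425 in the authors' deposited table. A 94-nt form of the same exon, with another start, stayed at 0.017 to 0.058. The 60-nt exon had 0.731, 0.68 and 0.725 in the larger set and 0.755 and 0.589 in the smaller set, so the smaller set enclosed the other (adjusted p = 0.854, limma). In Mark3 none of 3 tested events came near the threshold, the lowest adjusted p being 0.847 (limma). Its 192-nt exon had 1.0, 0.926 and 0.985 in the larger set and 0.981 and 0.978 in the smaller set, and its 27-nt microexon had 0.201, 0.324 and 0.295, against 0.251 and 0.269.

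Read coverage, taken from the deepest event of each gene as a partial stand-in for expression, was higher in the larger set for 3 of the 8 genes, against 13.2% of 8201 genes called higher and 22.7% called in either direction (limma). Map2 had 4208, 3562 and 4275 CPM in the larger set, against 3051 and 2976 CPM in the smaller set. All 3 libraries were above both others (log2 difference 0.41 ± 0.09 SE, adjusted p = 0.00375, limma), and the adjusted p was at most 0.0397 without any single library. Map4 had 379, 342 and 383 CPM, against 305 and 300.5 CPM (log2 difference 0.28, adjusted p = 0.0378, limma). This call was lost without the first or the third library of the larger set (adjusted p = 0.146 and 0.145, limma). Clasp1 had 43.6, 43.9 and 48.0 CPM in the larger set, against 25.1 and 33.3 CPM in the smaller set (log2 difference 0.64, adjusted p = 0.0265, limma). It no longer passed without the first library of the smaller set (adjusted p = 0.190), without any library of the larger set (0.0606 to 0.0886), or with the median over its events (0.196, limma). In bulk tissue, fewer cells of a type and less RNA per cell cannot be told apart.

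Mapt missed the threshold with its deepest event, at 207, 233 and 221 CPM in the larger set against 186 and 174 CPM in the smaller set (adjusted p = 0.0507, limma), and passed it with the median over its events (log2 difference 0.57, adjusted p = 0.00359). The other 4 genes did not pass. The log2 difference was 0.26 for Macf1, -0.14 for Clasp2, -0.22 for Dync1i2 and -0.21 for Mark3, with adjusted p from 0.192 to 0.491 (limma).

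Levels between genes can be compared per length. The densities below are scaled to the reads of all listed events of a library, so they are not on the scale of the CPM values above. By the median event of a gene, ordered by the larger set, Mapt had the highest density, 432 to 481 reads per kb and per 1000000 reads in the larger set and 323 to 334 in the smaller set, followed by Map2 with 319 to 408 and 229 to 237. Map4 (214 to 240 and 153 to 178) and Dync1i2 (202 to 239 and 230 to 239) followed. Clasp2 (139 to 159 and 142 to 145) and Mark3 (97.1 to 114 and 119 to 129) came next, then Macf1 (85.8 to 101 and 51.1 to 56.9) and Clasp1 (48.3 to 67.7 and 45.8 to 47.2). Within the larger set, Map4 overlapped Dync1i2 and Mark3 overlapped Macf1, and no other neighbours in this order overlapped there. In the smaller set the order differed, with Dync1i2 next to Mapt: its range overlapped that of Map2 and lay above that of Map4, and Mark3 lay well above Macf1. The 2 CLASP genes thus differed in density in every library, with Clasp2 higher.

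**Figure D3:**
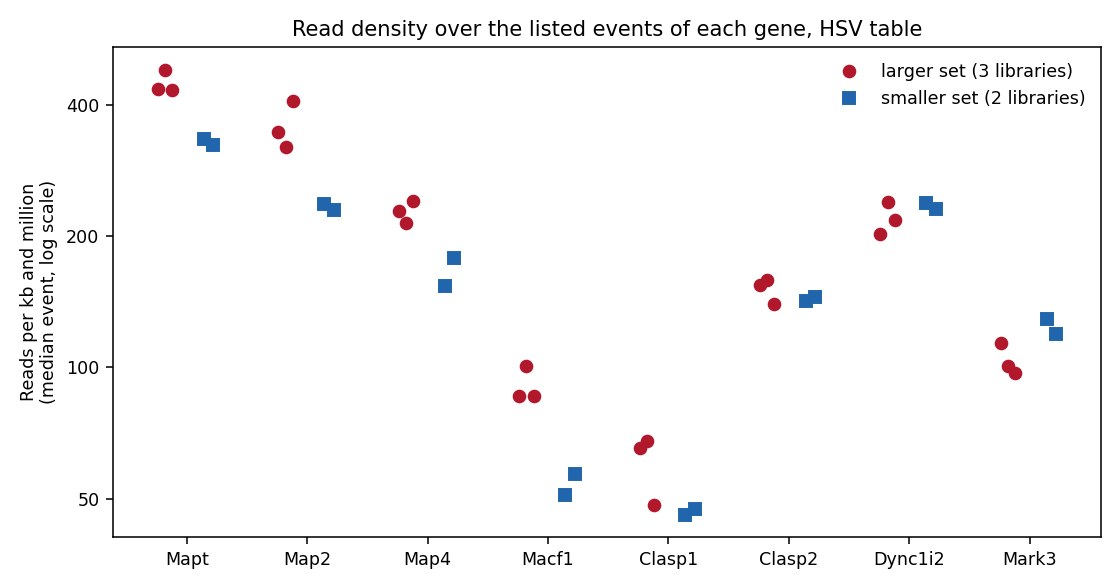
Reads per kb and per 1000000 reads (log scale), median over the listed events of each gene, in every HSV library; red circles are the larger set and blue squares the smaller set. Mapt, Map2, Map4, Macf1 and, narrowly, Clasp1 have all red points above the blue ones, and Mark3 has all of them below.

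In the dCas9-SET2 table, the authors' deposited adjusted p was below 0.05 in 4 of the 37 member events, or 10.8%, against 4.96% of the 5287 events with a value; 3 of the 4 were higher in the second set, a direction called in 2.23% of all events. Runs that share a sample name are not independent replicates, and the columns carry no names by which they could be summed, so no test over samples was made here. Member events had a median of 19 reads per run, against 4.78 over all events, and with at least 10 reads per run 3 of 26 member events were called, or 11.5%, against 6.21% of all such events. Intervals below are 95% exact binomial intervals on reads summed over runs and cover counting error only.

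The 60-nt exon of Dync1i2 had a PSI of 0.645 (interval 0.599 to 0.689, 544 reads) in the second set and 0.528 (0.489 to 0.567, 713 reads) in the first. Its intervals are the only ones among the 4 called events that do not meet. Single runs lay between 0.519 and 0.774 with a median of 0.627 in the second set, and between 0.306 and 0.77 with a median of 0.56 in the first. The authors' deposited table gives a difference (dPSI) of 0.0999 and an adjusted p of 0.0245. The 159-nt exon of Mark3 had 0.405 (0.335 to 0.48) in the second set and 0.309 (0.261 to 0.361) in the first, with run medians of 0.373 and 0.28 and a dPSI of 0.139 with an adjusted p of 0.0273 in the authors' deposited table. The intervals met. This exon was not among the events of the HSV table.

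The downstream 87-nt insert exon of Mapt went the other way. Its PSI beside the upstream insert was 0.45 (0.387 to 0.515, 256 reads) in the second set and 0.536 (0.479 to 0.594, 352 reads) in the first, with a dPSI of -0.0922 and an adjusted p of 0.0292 in the authors' deposited table. The run medians were 0.405 in the second set and 0.504 in the first, with runs from 0.347 to 0.865 and from 0.307 to 0.698. The 3-nt exon of Clasp2 had 0.708 (0.587 to 0.811) in the second set and 0.687 (0.592 to 0.771) in the first, on 70 and 114 reads. The summed reads thus differed by 0.0216, whereas the authors' deposited table gives a dPSI of 0.147 with an adjusted p of 0.0309.

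Map4, Map2, Macf1 and Clasp1 had no event called. The deepest event of Map4, the 222-nt exon, had 0.613 in the second set and 0.597 in the first, with overlapping intervals (0.586 to 0.64 and 0.572 to 0.621). The MAP2A exon of 246 nt had 0.0259 and 0.0224, and the 102-nt exon of Macf1 0.0114 and 0.0132. The 117-nt exon of Clasp1 had 0.615 (0.521 to 0.706) in the second set and 0.523 (0.45 to 0.598) in the first. None of these 4 differed by more than its intervals. Among uncalled events, the intervals parted only for the 97-nt exon of Mapt, at 0.0231 (0.0137 to 0.0365) in the second set and 0.00657 (0.00264 to 0.0135) in the first, with an adjusted p of 0.578 in the authors' deposited table. In the authors' deposited table, dPSI was above 0 in 23 and below 0 in 13 of the 37 events. Above 0 were 62.2% of the members and 45.9% of all events. The sign of dPSI does not always follow that of the difference from summed reads.

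**Figure D4:**
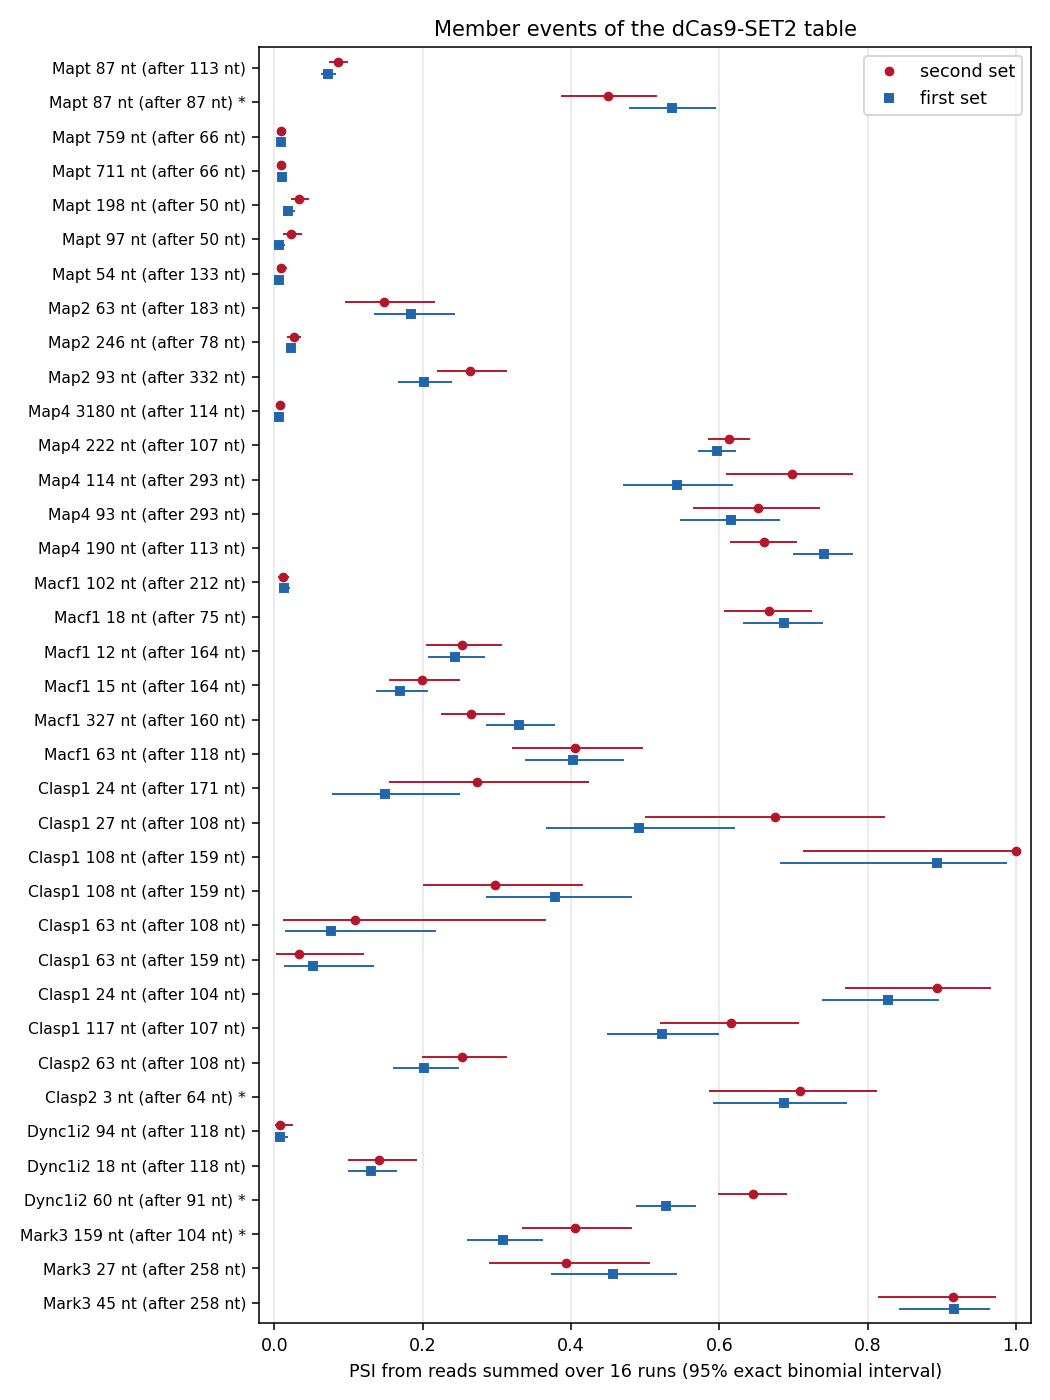
PSI of the 37 member events of the dCas9-SET2 table from reads summed over the 16 runs of each set, with 95% exact binomial intervals; red circles are the second set, blue squares the first, and an asterisk marks an adjusted p below 0.05 in the authors' deposited table. Row names give the exon and the exon before it; of the 108-nt exons of Clasp1, the upper is followed by 63 nt and the lower by 104 nt. The intervals of the sets overlap except for the 60-nt exon of Dync1i2 and, narrowly, the 97-nt exon of Mapt.

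The tables place the same exons at different coordinates, so events were matched by gene, exon length and both intron lengths. By this rule, 35 of the 37 events, at 33 exons, were found in both. Across these 35 events, mean PSI had a Pearson correlation of 0.936 and a Spearman correlation of 0.922, as a description: events of one gene share libraries and partly reads, and genes are not replicates. In 24 of the 35 the tables were within 0.10 of each other, with a median gap of 0.0543. Of the 11 larger gaps, 4 were higher and 7 lower in the dCas9-SET2 table. The repeat exon of Map2 had 0.233 in the dCas9-SET2 table and 0.0782 in the HSV table, and 2 exons of Map4 were also higher in the dCas9-SET2 table, at 0.621 against 0.308 for the 114-nt and 0.605 against 0.401 for the 222-nt exon. The 18-nt exon of Dync1i2 was lower in the dCas9-SET2 table, at 0.136 against 0.347, as were the 27-nt exon of Clasp1 (0.583 against 0.772), the 63-nt exon of Macf1 (0.404 against 0.574) and that of Clasp1 after the 108-nt exon (0.0929 against 0.245). The gaps were not tested, since the tables come from different experiments and libraries. The 3180-nt exon of Map4, called between the HSV sets, had 0.00823 in the second and 0.00662 in the first dCas9-SET2 set, which is below every HSV library.

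**Figure D5:**
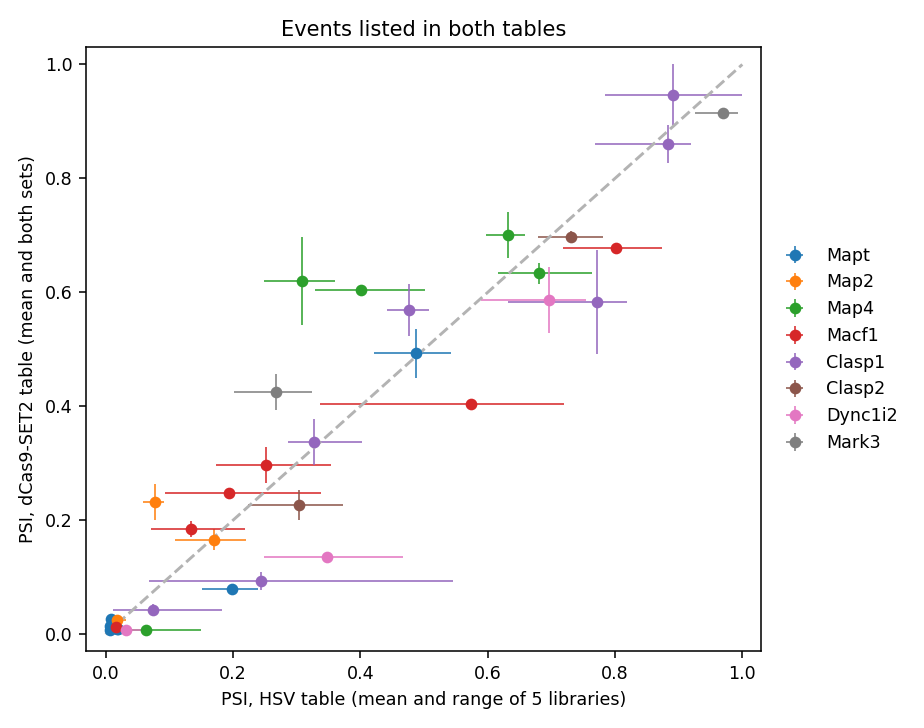
PSI of the 35 events listed in both tables, with the HSV table on the x axis (point at the mean, bar over the range of the 5 libraries) and the dCas9-SET2 table on the y axis (point at the mean of both sets, bar between them); colours mark genes and the dashed line marks equal values. Most points lie along the line, and the exons of 114 and 222 nt of Map4 lie farthest above it.

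Beyond the 8 genes, a list of 96 other genes of microtubules, tubulin, dynein and its adaptors had 117 tested events in 50 genes in the HSV table. Of these, 3 were called (2.56%, against 1.97% of all events), all higher in the larger set, a direction called in 0.877% of all events. An unadjusted limma p below 0.05 was found in 19, or 16.2%, against 12.2% of all events, and the authors' deposited table has an FDR below 0.05 in 19, against 12.6%. The 39-nt exon of Spag9, a scaffold that links kinesin and dynein to cargo, had PSI 0.496, 0.413 and 0.429 in the larger set, against 0.249 and 0.26 in the smaller set (adjusted p = 0.00226, limma). The 24-nt exon of Mapk8ip3, a related motor scaffold, had 0.201, 0.208 and 0.186, against 0.092 and 0.081 (adjusted p = 0.0163, limma). The 39-nt exon of Gsk3b, a kinase that phosphorylates tau, had 0.2, 0.23 and 0.255, against 0.138 and 0.052 (adjusted p = 0.0359, limma). In all 3 exons the sets did not overlap. Without a single library, the adjusted p reached at most 0.0535 for Spag9, 0.127 for Mapk8ip3 and 0.343 for Gsk3b (limma). The difference between this list and the 8 genes was not tested.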

How the data were processed

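RNA of nucleus accumbens was measured in 9 HSV libraries and 32 dCas9-SET2 runs. The submitters' processing notes name Bowtie2 and STAR 2.4.1d and the builds mm10 and mm9 without roles; event caller and build are not given in the sources used here. As deposited, the authors' read counts stand joined by commas within cells, so no sample name belongs to 5 library columns (HSV) and 32 run columns (dCas9-SET2), which were compared as the sets of each table. The authors' inclusion levels were recomputed from the counts within 0.001 in 100% of values, with form lengths of exon plus 150 nt against 150 nt (HSV) and exon plus 99 nt against 99 nt. P-value, FDR and adjusted p of each event are the authors', as deposited, from unnamed tests. The authors' deposited difference score of the HSV table is the smaller minus the larger set and is printed the other way round. Their dPSI score is the second minus the first set. It was rebuilt within 0.0001 in 91.3% of events as a mean of run differences without those beyond 1 SD. This rebuild paired runs of the sets by position and took runs without reads as 0. Among events with an absolute dPSI over 0.05 and a clear difference of set means, 85.3% had the sign of that difference.

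An HSV event was tested if it had, per library, a mean of at least 20 reads, and over all libraries at least 10 of its rarer form. Its logit-transformed inclusion (counts plus 0.5, divided by form length) entered limma 3.58.1 (R 4.3.3) for all 7754 events, two-sided, with Benjamini-Hochberg adjustment and calls at 0.05. Weights came from the reads of a library and the event's share of including reads over all libraries. An earlier analysis weighted by observed reads of both forms; there one spread was shared by all events, so it is given as an alternative. Coverage was the log2 CPM of the deepest event per gene (TMM trims 0.3 and 0.05, 0.5 added, trended limma, 8201 genes), which understates fold changes where reads are few. Data were simulated from the read totals and mean levels of these libraries, with 200 changed features. The spread between libraries was fixed in advance, alike for all features of a fit, and was not estimated from these data. The splicing fit over 7754 events made 63 calls, 2 of them false. It called 3.03%, 26.9% and 61.2% of logit changes of 0.5, 1 and 2. The coverage fit over 8201 genes made 114 calls, 5 of them false. It called 4.55%, 59.7% and 98.5% of log2 changes of these sizes. Where the real spread differs from the fixed one, these shares do not apply. No count model was used, as joined cells are no columns of counts. The 48 chromatin samples were not used here.

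Members and gene lists were chosen with earlier results of these data known. Values in every library are given for called member events, the deepest tested event of a gene without a call, the 3 largest differences called only by the authors, and, in the dCas9-SET2 table, the authors' calls and the deepest event of other genes; other member exons were chosen after their values were seen.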

Additional observations from a re-analysis of the deposited data

How the results depend on the processing

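The count of member events called between the HSV sets was 1 with the settings used. It was 2 with a count of 1 added, 0 with 0.1 added, 0 with no filter on reads and 0 with no weights. With weights from observed reads it was 5, and by the authors' deposited FDR 10. The observed-read weights belong to the earlier analysis, and the weights used here replaced them after the data were seen. Leaving out a library of the larger set gave 0, whichever was left out. Weights and added count therefore decide whether any member event is called; with no weights limma called 0 of all 7754 events, with 790 at an unadjusted p below 0.05. Member genes called for coverage numbered 3, and 1 to 4 without single libraries. Called events of the other microtubule genes numbered 3, and 0 to 4 without single libraries. Where the smaller set kept a single library, the fit takes its spread to be that of the larger set.

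In 11 of the recomputed values a difference that was not called changed sign. Leaving out single libraries, the logit difference ran from -0.469 to 1.253 for the 93-nt exon of Mapt and from -0.00464 to 0.368 for that of Map2, each lowest without the first library of the smaller set. It ran from -0.13 to 0.0613 for the 190-nt exon of Map4, with 0.0454 without the first library of the larger set, and from -0.228 to 0.538 for the 60-nt exon of Dync1i2, lowest without the second library of the smaller set. For the 192-nt exon of Mark3 it ran from -0.564 to 1.09, lowest without the first library of the larger set, and was -0.77 with observed-read weights. The log2 coverage difference of Clasp2 ran from -0.355 to 0.0727, highest without the first library of the smaller set, and was 0.0819 with the median over events. In the dCas9-SET2 table, the 246-nt exon of Map2 differed by 0.00353 from summed reads and by 0.00356 with untrimmed run means, against -0.0011 in the authors' deposited table. The cause of these changes was not tested. Of the other recomputed values of single events or genes with a test, 283 kept direction and side of the threshold, 14 lost a call and 10 gained one. A further 14 from the dCas9-SET2 table kept their direction and have no p; among them, the difference of the called 3-nt exon of Clasp2 was 0.0216 from summed reads, against 0.147 in the authors' deposited table.

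No paired analysis was possible because the columns of both tables carry no sample names or replicate numbers. At the depth of these libraries, an event that was not called is no evidence of unchanged inclusion.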
